A study of Mus musculus with 3 samples.

Results

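Prkcb and Efcab6 are long genes whose bodies carried both H3K36me3 and H3K27me3 in mouse germinal vesicle (GV) oocytes. Both were selected on the measured calls, since they hold the longest unbroken runs of windows with these marks, so everything given here on the marks in these genes is a description without a test. The report covers the 2 kb windows that overlap their GENCODE M21 gene bodies and 50 kb on both sides. These are 369 of 1186323 valid windows, 221 at Prkcb (171 in the body) and 148 at Efcab6 (98 in the body). The H3K36me3 libraries come from native ChIP-seq adapted to few cells, in which unfixed chromatin is cut with micrococcal nuclease and pulled down with an antibody. The 3 replicates form a single group: wildtype GV oocytes of the strain C57BL6/Babr, taken at 25 days of age in pools of about 280 cells. Less antibody was used for replicate 2. Nothing in the labels ties the pools to separate mice, so the spread between replicates may be partly technical. H3K27me3 and H3K4me3 enter only as 1 call per window, made by the authors from earlier libraries of the same laboratory, so no replicate values of these marks were used here.

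H3K36me3 is laid down by SETD2, which travels with elongating RNA polymerase II, and so marks the bodies of transcribed genes. H3K27me3 is deposited by Polycomb repressive complex 2 and is known from silent genes, and the presence of methyl groups on K36 hinders that complex on the same histone tail. Oocytes are known for broad domains of both marks and of H3K4me3, the last of which is otherwise a mark of promoters. Prkcb encodes protein kinase C beta, a kinase activated by calcium and diacylglycerol that is well known from B cell receptor signalling. Efcab6 encodes an EF-hand calcium-binding protein known mainly from testis, where it binds the androgen receptor and DJ-1.

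Prkcb (ENSMUSG00000052889.11) lies on the plus strand at chr7:122288751-122634402 of GRCm38, and Efcab6 (ENSMUSG00000022441.17) on the minus strand at chr15:83866712-84065379. Prkcb is 346 kb long with 17 exons in its principal transcript Prkcb-202, and Efcab6 is 199 kb long with 32 exons in Efcab6-207. Exons of all annotated transcripts take 2.21% of Prkcb and 3.23% of Efcab6, so most windows are intronic. The 2 sequences shown mark places that the results turn on: the promoter that begins the part of Prkcb without H3K36me3, and the exon inside the highest doubly marked window of Efcab6. RefSeq promoters on GRCm38.p6 matched 1 of the 2 members, Prkcb. Its 250 bases before the RefSeq start, chr7:122288875-122289124 on the plus strand, are given with CpG in capitals. They hold 17 CpG, and the whole 300-base entry holds 19, against a median of 7 over 32851 promoters of that length, of which 28.1% hold at least as many.
Prkcb promoter: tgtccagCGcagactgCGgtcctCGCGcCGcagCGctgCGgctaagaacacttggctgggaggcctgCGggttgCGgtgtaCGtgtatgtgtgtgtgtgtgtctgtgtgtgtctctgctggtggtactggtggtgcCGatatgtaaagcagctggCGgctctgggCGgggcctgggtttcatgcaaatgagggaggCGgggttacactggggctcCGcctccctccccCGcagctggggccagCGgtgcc
The other one, chr15:83952111-83952410 read on the minus strand, has coding exon 12 of Efcab6-207 in capitals (109 bases).
Efcab6 exon 12: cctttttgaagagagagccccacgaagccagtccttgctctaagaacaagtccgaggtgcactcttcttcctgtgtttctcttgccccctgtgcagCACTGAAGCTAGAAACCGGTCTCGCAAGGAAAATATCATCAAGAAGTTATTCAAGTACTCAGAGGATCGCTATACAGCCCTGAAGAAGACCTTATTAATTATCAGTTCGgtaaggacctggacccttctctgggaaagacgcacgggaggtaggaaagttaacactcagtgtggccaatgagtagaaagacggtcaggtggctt

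Levels are given in the deposited RPKM, that is, reads of a 2 kb window scaled to library depth. One read is worth 0.136 in replicate 1, 0.396 in replicate 2 and 0.338 in replicate 3. Summed over valid windows, the replicates hold 7888140, 2692510 and 3166564 reads. Whether a read at a window border was counted in both windows is not given in the sources used here. A window was called for H3K36me3 when its mean over the 3 replicates exceeded 1, a rule that matched the authors' call in every valid window. Passing 1 takes 8 reads in replicate 1 and 3 reads in each of the other replicates. A window with 0 reads allows up to 3 reads, which equals 0.407, 1.19 and 1.02 in replicates 1 to 3. Single windows in replicates 2 and 3 therefore cannot show that the mark is below the threshold, and the values below are mostly means over many windows. Such limits cover counting error only, and reads may include PCR copies. In the whole series 31.8% of valid windows were called for H3K36me3, 30.0% for H3K27me3, 28.3% for H3K4me3, and 2.06% for H3K36me3 and H3K27me3 without H3K4me3, here called doubly marked.

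Over the gene body, H3K36me3 in Prkcb was 1.28 in replicate 1, 1.40 in replicate 2 and 1.35 in replicate 3 (mean 1.34 ± 0.0625, SD, n = 3) from 2890 reads. In Efcab6 it was 2.02, 2.01 and 2.42, a mean of 2.15 ± 0.233 (SD, n = 3) from 2654 reads. All 3 replicates were higher in Efcab6 than in any replicate of Prkcb, by 0.68 ± 0.16 on the log2 scale (SD, n = 3). The mean over all valid windows was 0.902 ± 0.00203 and that over windows of protein-coding genes 1.31 ± 0.0289 (SD, n = 3). Prkcb was close to an average genic window, and 50% of the 2484 protein-coding genes of at least 100 kb had a higher level. For Efcab6 that share was 18.7%.

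In the body of Prkcb 107 of 171 windows (62.6%) were called for H3K36me3 and 147 (86.0%) for H3K27me3. Doubly marked windows numbered 81 (47.4%), windows with H3K36me3 alone 7 and windows with all 3 marks 10. In the body of Efcab6 92 of 98 windows (93.9%) were called for H3K36me3 and 60 (61.2%) for H3K27me3. Doubly marked windows numbered 55 (56.1%), windows with H3K36me3 alone 27 and windows with all 3 marks 3, a combination found in 0.517% of valid windows. H3K36me3 alone was found in 24.6% of valid windows. Nothing is read from the distance of these shares from the series, since the genes were chosen for them. The overlap ran in opposite directions: 85.1% of the H3K36me3 windows of Prkcb also carried H3K27me3, and 96.7% of the H3K27me3 windows of Efcab6 also carried H3K36me3. The reverse shares were 61.9% and 63.0%. Over all valid windows, 8.1% of H3K36me3 windows and 8.59% of H3K27me3 windows carried both marks, shares that the choice of the genes also sets apart. Prkcb thus lacked H3K36me3 more often than H3K27me3, and Efcab6 lacked H3K27me3 more often than H3K36me3.

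**Figure D1:**
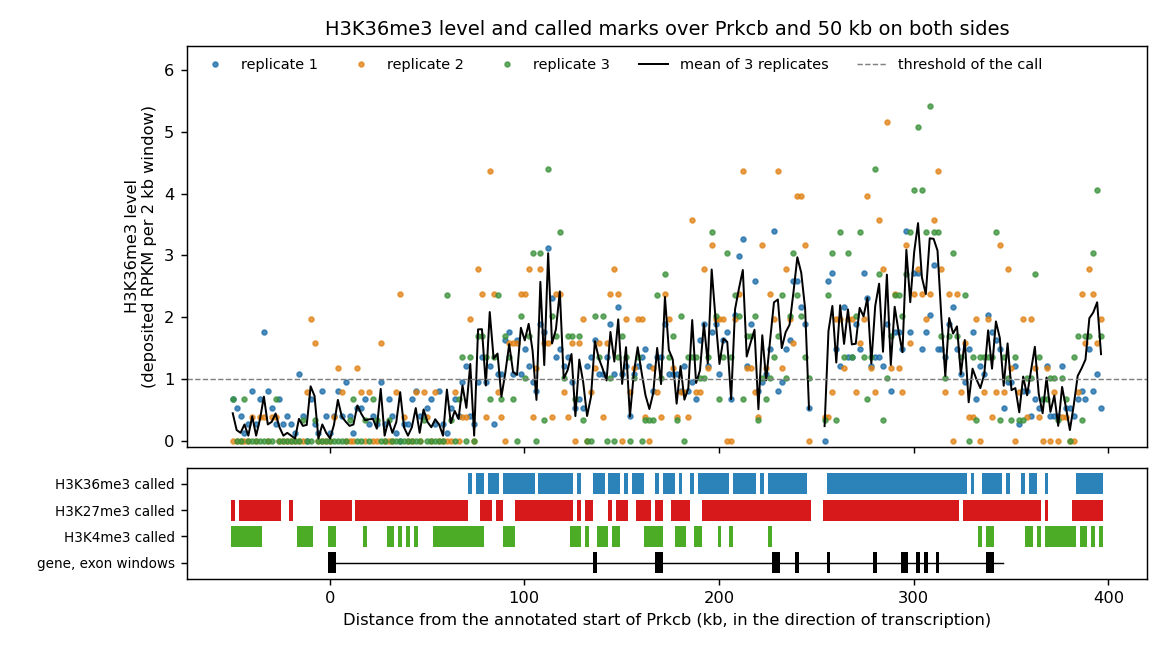
H3K36me3 level (RPKM per 2 kb window, points for replicates 1 to 3, line for their mean) against distance in kb from the start of Prkcb, with the called marks and the windows holding exons of Prkcb-202 as bars below. The level is low for the first 71.3 kb of the gene and mostly above the dashed threshold of 1 from there on, while H3K27me3 is called on both sides of that point. The line is broken where 3 windows were removed by the authors.

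Along Prkcb the H3K36me3 calls began 71.3 kb after the annotated start. The 36 windows before this point had 0 H3K36me3 calls, and 35 of them were called for H3K27me3 and 17 of those also for H3K4me3. Their level was 0.494 in replicate 1, 0.407 in replicate 2 and 0.216 in replicate 3 (mean 0.373 ± 0.142, SD, n = 3). The highest of these windows reached a mean of 0.90. The 135 windows after this point had levels of 1.48, 1.66 and 1.65 and a mean of 1.60 ± 0.0998 (SD, n = 3). The later stretch was higher in each replicate, and the difference was 2.18 ± 0.68 on the log2 scale, a value that the choice of the point favours. The whole stretch without H3K36me3 covers the promoter, exons 1 and 2 and the first part of intron 2 of Prkcb-202.

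The window of the Prkcb start, which contains the promoter shown above, held 1 read in all 3 replicates together and was called for H3K4me3 and H3K27me3. It has 113 CpG, the most in the gene, and 0.295% of valid windows have more. Parts 1 and 2 of the body, counted as 10 equal parts in the direction of transcription, had mean levels of 0.346 and 0.391 and no call for H3K36me3. H3K27me3 was called in 94.4% and 100% of their windows. These levels are near the 0.331 ± 0.068 (SD, n = 3) of all windows of the series called for H3K27me3 alone. Windows of the series with H3K4me3 and H3K27me3 had 0.371 ± 0.0943, and those without a called mark 0.323 ± 0.0535 (SD, n = 3). Such levels are therefore not particular to H3K27me3. H3K36me3 calls then covered 76.5% of windows in part 3, 72.2% in part 4, 58.8% in part 5 and 70.6% in part 6. The marks changed from window to window in these parts. H3K27me3 covered 58.8% of windows in parts 3 and 5, and the doubly marked share ranged between 23.5% and 50%.

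Parts 7 to 9 of Prkcb were almost wholly doubly marked. In part 7 the doubly marked share was 82.4%, in part 8 86.7% and in part 9 100%, before it dropped to 61.1% in part 10. Part 9 had the highest level of the gene, with 1.86 in replicate 1, 2.31 in replicate 2 and 2.93 in replicate 3 (mean 2.37 ± 0.535, SD, n = 3). It also has the highest exon content, 9.65% of its bases. Parts 6 to 10 together had 1.77 ± 0.13 and parts 1 to 5 0.928 ± 0.0859 (SD, n = 3), a log2 difference of 0.79, 0.84 and 1.16 in replicates 1 to 3. All replicates were higher in the 3 prime parts, and H3K27me3 was called in 94.1% of these windows against 78.2% of those in parts 1 to 5.

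The longest doubly marked run of Prkcb, chr7:122544001-122612000, spans 34 windows and 68 kb. It reaches from exon 9 to exon 16 and holds 8 of the 17 exons. H3K36me3 was 1.85 in replicate 1, 2.08 in replicate 2 and 2.49 in replicate 3 (mean 2.14 ± 0.324, SD, n = 3) from 891 reads. Window means ran from 1.06 to 3.52 with a median of 2.14. The highest window had 2.72, 2.78 and 5.08 in replicates 1 to 3 (42 reads). The run is followed by a single window with H3K36me3 alone at a mean of 1.08. On its 5 prime side stand a window with H3K27me3 alone, at a mean of 0.245 and with 63 CpG, and 3 windows removed by the authors. Beyond the removed windows stands another window with H3K27me3 alone, at a mean of 0.52. A further 9 doubly marked windows lie 5 prime of it, from exon 6 to exon 8, with a level of 2.21 ± 0.487 (SD, n = 3).

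**Figure D2:**
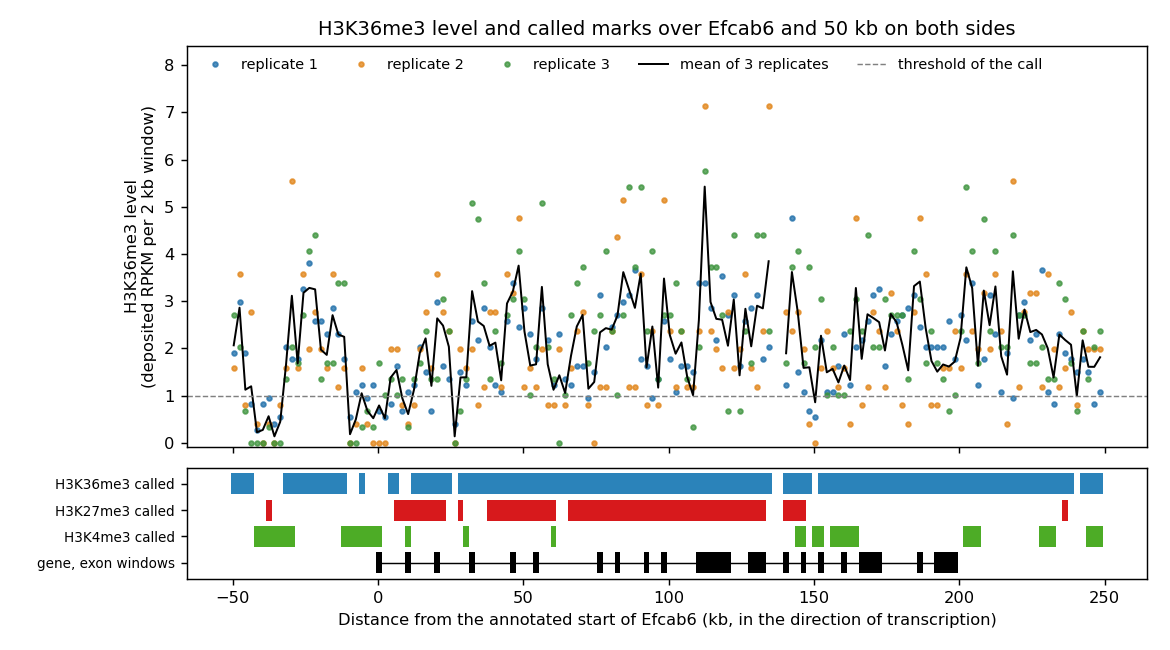
H3K36me3 level (RPKM per 2 kb window, points for replicates 1 to 3, line for their mean) against distance in kb from the start of Efcab6, with the called marks and the windows holding exons of Efcab6-207 as bars below. H3K36me3 is called from the 5 prime part into the downstream flank, and the H3K27me3 calls of the gene body end 147 kb after the start. The line is broken where 2 windows were removed by the authors.

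The start window of Efcab6 carried neither mark by its call. It had 0.679 in replicate 1, 0 in replicate 2 and 1.69 in replicate 3 and was called for H3K4me3 alone, a value too thin to place on either side of 1 (10 reads). Part 1 reached 1.22 ± 0.134 (SD, n = 3) and was 50% doubly marked, and part 2 reached 2.04 ± 0.258 and was 40% doubly marked. Parts 3, 5 and 6 were doubly marked in all of their 10 windows each, with levels of 2.40, 2.71 and 2.49. Part 4 lay between them with 70% and a level of 1.78, and part 7 had 87.5% and a level of 2.63. The level of part 5, the highest, was 2.32 in replicate 1, 2.70 in replicate 2 and 3.11 in replicate 3.

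Within the gene body, H3K27me3 calls ended 147 kb after the start while H3K36me3 went on. In part 8 the doubly marked share was 20%, and in parts 9 and 10 it was 0, although all 20 of their windows were called for H3K36me3. The 26 windows after the last H3K27me3 call of the body had H3K36me3 levels of 2.08, 1.81 and 2.25. These are replicates 1 to 3, with a mean of 2.05 ± 0.22 (SD, n = 3). The 72 windows before it had 2.00, 2.08 and 2.48 and a mean of 2.19 ± 0.256. The difference changed sign between replicates, with log2 values of 0.058, -0.20 and -0.14. The mean levels of both stretches thus did not differ beyond the spread of replicates. Both means cover long stretches and do not describe the level at the point where H3K27me3 stopped. Part 8, which holds this point, had 1.89 ± 0.445, beside 2.63 ± 0.148 in part 7 and 2.32 ± 0.255 in part 9 (SD, n = 3). Parts 6 to 10 together exceeded parts 1 to 5 by 0.17 ± 0.092 on the log2 scale (SD, n = 3), and by 0.25, 0.19 and 0.067 in the single replicates.

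The longest doubly marked run of Efcab6, chr15:83932001-84000000, also spans 34 windows and 68 kb. It holds 13 of the 32 exons, from exon 7 to exon 19. H3K36me3 was 2.24 in replicate 1, 2.23 in replicate 2 and 2.90 in replicate 3 (mean 2.45 ± 0.384, SD, n = 3) from 1042 reads. Replicates 1 and 2 lay close together and replicate 3 was higher. Window means ran from 1.01 to 5.43 with a median of 2.46. The highest window, chr15:83952001-83954000, contains the exon 12 shown above and had 3.40, 7.14 and 5.75 in replicates 1 to 3 (60 reads). Further runs of 11 windows (chr15:84006001-84028000) and 6 windows (chr15:84042001-84054000) lie 5 prime of it, with levels of 2.37 ± 0.188 and 1.93 ± 0.291 (SD, n = 3).

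The unbroken length of both runs depended on windows near the threshold. Against the 34 windows in each gene, the next longest run of the series held 29 windows. It lay within Cdh23 (cadherin 23, a component of hair cell tip links). Next came a run of 25 windows in Cdh23 and another of 25 windows that overlaps Rtl1. Of the 34 windows, 23 in Prkcb and 26 in Efcab6 were above 1 in each of the 3 replicates. This condition was met by 47.3% of all doubly marked windows of the series and by 19.7% of all valid windows, called or not. With this stricter call the longest run was 10 windows in either gene. Leaving out 1 replicate and calling again gave 30, 19 and 34 windows in Prkcb without replicates 1, 2 and 3, and 21, 21 and 29 in Efcab6. The number of doubly marked windows moved far less, between 77 and 82 in Prkcb and between 53 and 55 in Efcab6. In Prkcb the 81 doubly marked windows formed 18 runs, 9 of them of a single window, and 42.0% of the windows lay in the longest run. In Efcab6 the 55 windows formed 6 runs, and 61.8% lay in the longest.

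**Figure D3:**
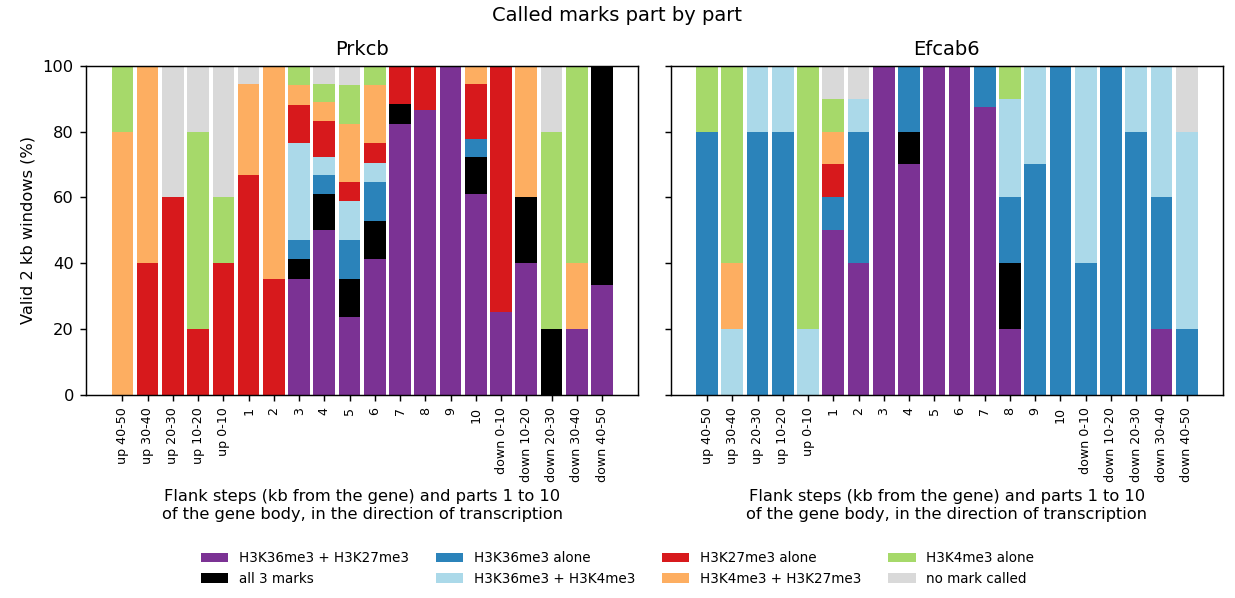
Share of valid 2 kb windows (%) in each combination of called marks, for 10 kb steps of the flanks and 10 equal parts of the gene bodies, in the direction of transcription. The doubly marked share of Prkcb is 0 in parts 1 and 2 and peaks at 100% in part 9, and that of Efcab6 is 100% in parts 3, 5 and 6 and 0 in parts 9 and 10.

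The flanks set the genes apart. The 25 windows upstream of Prkcb had 0 H3K36me3 calls and a level of 0.511 in replicate 1, 0.254 in replicate 2 and 0.108 in replicate 3, and 15 of them were called for H3K27me3. The 25 downstream windows had 0.744, 1.08 and 1.22 with 12 H3K36me3 calls, 6 of them doubly marked. Here replicate 1 was the lowest and on the upstream side it was the highest. The body exceeded the mean of all flank windows by 1.04 ± 0.029 on the log2 scale (SD, n = 3). Against the downstream flank alone the excess was 0.78, 0.38 and 0.14 in replicates 1 to 3. H3K27me3 calls ran unbroken over 20 windows, chr7:122614001-122654000, from intron 16 of Prkcb-202 past the annotated end of Prkcb. The last 8 windows of this flank overlap Cacng3, which encodes an auxiliary subunit of AMPA receptors. All 8 were called for H3K27me3 and 7 for H3K36me3, at a level of 0.815, 1.68 and 1.95.

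Around Efcab6 the flanks carried H3K36me3 without H3K27me3. On the downstream side 24 of 25 windows were called for H3K36me3 and 1 for H3K27me3, at 1.96, 2.33 and 2.54 in replicates 1 to 3. The mean of 2.28 ± 0.295 (SD, n = 3) was not separable from that of the body, with a log2 difference of body over flank of -0.082 ± 0.13. Most of this flank is Mpped1, a metallophosphoesterase gene transcribed toward Efcab6, whose end lies 8.22 kb from that of Efcab6. Its 22 windows here had 2.17 ± 0.277 (SD, n = 3), and 21 of them were called for H3K36me3. H3K36me3 calls ran unbroken over 44 windows from inside Mpped1 into the 3 prime part of Efcab6, so the end of neither gene shows in this mark. Upstream, 16 of 25 windows were called for H3K36me3 and 1 for H3K27me3. Calls for H3K36me3 were sparse in the first 10 kb, where 1 of 5 windows passed at a level of 0.584 ± 0.379 (SD, n = 3). They returned over Sult4a1, a sulfotransferase gene that ends 10.7 kb upstream of Efcab6, with 11 of its 15 windows called. Pnpla5, a phospholipase gene at the border of the region, had 2 windows here, both called for H3K36me3 and neither for H3K27me3.

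The H3K36me3 level of doubly marked windows was set beside that of windows with H3K36me3 alone. Doubly marked windows of Prkcb had 1.76 in replicate 1, 2.04 in replicate 2 and 2.08 in replicate 3 (mean 1.96 ± 0.173, SD, n = 3). The 7 windows with H3K36me3 alone had 1.15, 1.93 and 1.60 and a mean of 1.56 ± 0.392. The doubly marked windows were higher in all 3 replicates, by 0.62, 0.08 and 0.38 on the log2 scale (mean 0.36). The mean difference was 0.16 with a threshold of 1.5, where 2 of 3 replicates were positive, and 0.13 with a threshold of 2. With the median over windows 2 of 3 replicates were positive. Of the 81 doubly marked windows of Prkcb, 62 lay in parts 6 to 10, where the level was higher, beside 3 of the 7. Position and the second mark therefore cannot be told apart here. In Efcab6 the doubly marked windows had 2.18, 2.24 and 2.64 and the 27 windows with H3K36me3 alone 2.17, 2.01 and 2.38, log2 differences of 0.0083, 0.16 and 0.15. With the median over windows the difference in Efcab6 was -0.031 and positive in 0 of 3 replicates, so its direction depends on the summary used. Over the series the order was the other way, since all doubly marked windows had 1.92 ± 0.216 and all windows with H3K36me3 alone 2.17 ± 0.142 (SD, n = 3). All these windows were selected for a mean above 1, which sets a floor for their levels. Windows of Prkcb with all 3 marks had 1.51 ± 0.128, and those with H3K36me3 and H3K4me3 had 1.31 ± 0.164 (SD, n = 3).

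**Figure D4:**
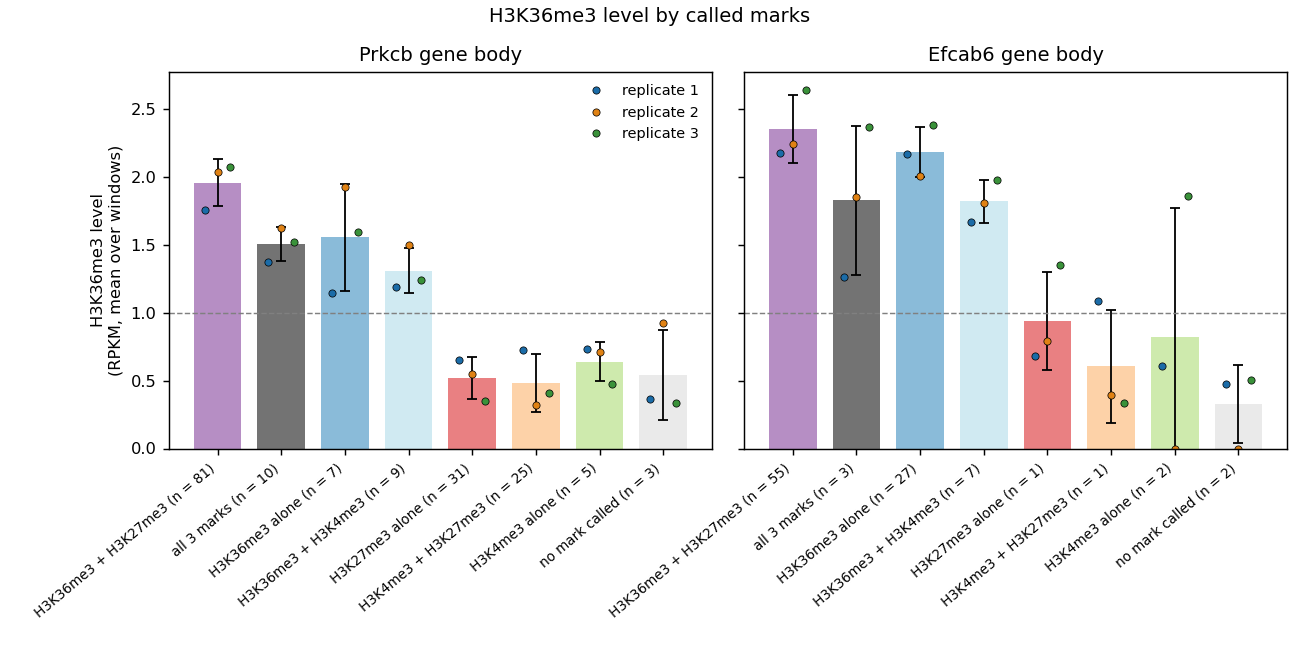
H3K36me3 level (RPKM, bars for the mean of 3 replicates, error bars for the SD, points for replicates) in the body of Prkcb and Efcab6 by called marks, with the number of windows in each. Doubly marked windows average 1.96 in Prkcb and 2.35 in Efcab6. Categories with under 4 windows have wide errors, and the threshold of 1 separates called from uncalled categories by construction.

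Single windows agreed poorly between replicates and broader stretches agreed better. Across the 171 windows of the Prkcb body Pearson's r was 0.47 for replicates 1 and 2, 0.56 for 1 and 3, and 0.32 for 2 and 3. Across the 98 windows of Efcab6 it was 0.36, 0.39 and 0.25. With means over 5 neighbouring windows the values rose to 0.75, 0.85 and 0.73 in Prkcb and to 0.62, 0.61 and 0.50 in Efcab6. These are descriptions across neighbouring windows, which share a gene and are not independent. Inside the 81 doubly marked windows of Prkcb r was 0.14, 0.23 and -0.11, and inside the 55 of Efcab6 it was 0.30, 0.35 and 0.24. These windows were selected on a mean above 1, which lowers r by construction. A window of the Prkcb body held a median of 9 reads in replicate 1, 3 in replicate 2 and 4 in replicate 3. Of the 81 doubly marked windows of Prkcb 50 were above 1 in all replicates (61.7%), and of the 55 in Efcab6 43 were (78.2%), against 47.3% of all 24404 doubly marked windows.

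The marks that chose the genes were also set beside annotated exons, transcript starts and base composition, as a description. Windows of the Prkcb body that overlap an annotated exon had 1.71, 1.90 and 2.31 in replicates 1 to 3, and those without an exon 1.21, 1.32 and 1.20. The exonic windows were higher in all 3 replicates, by 0.66 ± 0.25 on the log2 scale (SD, n = 3), and 14 of 23 were doubly marked (60.9%), beside 67 of 148 windows without an exon (45.3%). Exons of Prkcb lie mostly in the 3 prime parts, where the level was also higher, so position and exon content cannot be told apart. In Efcab6 the exonic windows exceeded the others by 0.41 and 0.18 in replicates 1 and 2 and were slightly lower in replicate 3, at -0.017. Transcripts annotated to start more than 2 kb inside the genes began in doubly marked windows in 3 of 4 cases in Prkcb and 4 of 6 in Efcab6. The doubly marked shares were 47.4% and 56.1% over the bodies. They were 73.8% over parts 6 to 10 of Prkcb and 76.4% over the Efcab6 body up to its last H3K27me3 call. Of the remaining transcripts, 1 in each gene began in a window with all 3 marks. The GC content of the body was 45.9% in Prkcb and 49.2% in Efcab6, against 41.8% over all valid windows. Doubly marked windows held 21.0 and 26.2 CpG on average, against 17.5 in all doubly marked windows of the series. All windows of the bodies held 21.9 in Prkcb and 27.5 in Efcab6, so these values are not particular to the doubly marked windows. Whether GC content contributes to the levels was not tested.

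The protein kinase C genes differed widely in both marks. Of 8 family genes, 4 had a mean H3K36me3 level above 1, beside 52.5% of all 21063 protein-coding genes. A window called for H3K27me3 was found in 6 (43.9% of all) and a doubly marked window in 5 (12.7% of all). These 5 include Prkcb, which was chosen for it, and are 101 to 490 kb long. Of the 2484 protein-coding genes of at least 100 kb, 1446 had no doubly marked window. The share over all genes, short ones included, is therefore an unlike measure for them. The median level was 0.877 over the 8 family genes and 1.1 over all protein-coding genes. Prkca, another isoform activated by calcium and diacylglycerol, had nearly the same level as Prkcb (1.36, 1.33 and 1.53) and a similar share of H3K36me3 windows, 65.0%. Its H3K27me3 share was 12.3%, and it held 18 doubly marked windows of 203. The isoforms that need diacylglycerol but not calcium split. Prkcd had 2.84 ± 0.503 and no H3K27me3 call, whereas Prkce, Prkch and Prkcq had between 0.262 and 0.413 with H3K27me3 in 87.8% to 99.2% of windows. Among the atypical isoforms, which need neither, Prkci had 1.71 ± 0.0537 and no H3K27me3 call, and Prkcz 0.40 ± 0.083 (SD, n = 3) with 78.4% of windows.

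Among 12 Efcab genes, which share the EF-hand name more than a common ancestry of the whole protein, 6 had a mean level above 1 and 6 a window called for H3K27me3, with a median level of 1.02, close to the shares of 52.5% and 43.9% over all protein-coding genes. A doubly marked window was found in 2 of them (12.7% of all genes), Efcab8 and Efcab6, which was chosen for it. Efcab8 had 33 of 34 windows with H3K27me3 and 7 doubly marked, at a level of 0.857 ± 0.127 (SD, n = 3). Efcab3, Efcab11, Efcab12 and Efcab14 had levels between 1.95 and 2.66 and no H3K27me3 call, and Efcab7 1.13 and none. Efcab2, at 0.925, had no H3K27me3 call either. Efcab10, Efcab1, Efcab5 and Efcab9 lay between 0.277 and 0.601 and had H3K27me3 in 9.80% to 100% of their windows.

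**Figure D5:**
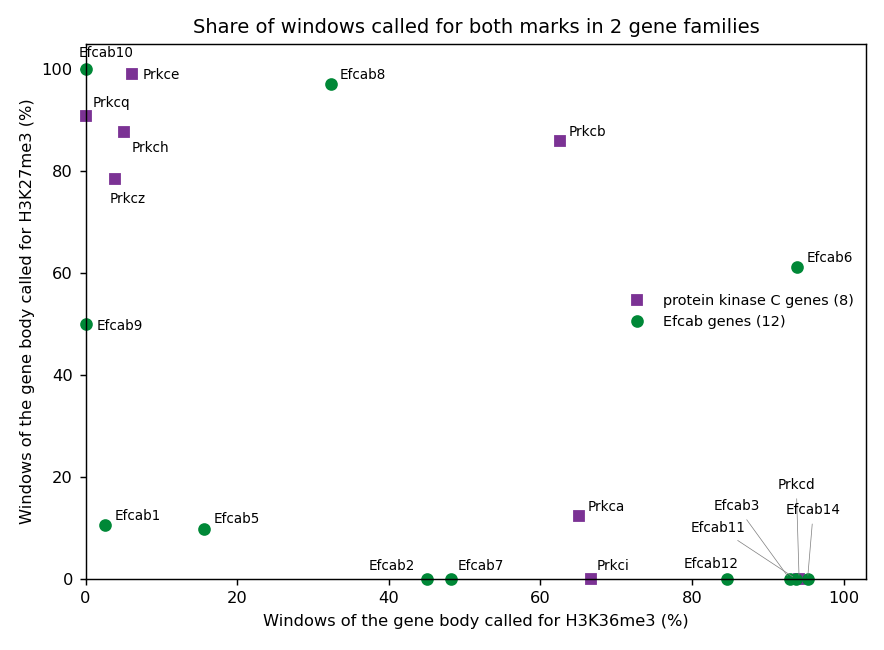
Share of gene body windows called for H3K27me3 (%) against the share called for H3K36me3 (%), for 8 protein kinase C genes and 12 Efcab genes, 1 point per gene. Most genes lie near an axis. Prkcb (62.6% and 86.0%) and Efcab6 (93.9% and 61.2%), which were chosen for this, lie away from both, as does Efcab8 (32.4% and 97.1%).

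Among all protein-coding genes Prkcb was the 5th by number of doubly marked windows and Efcab6 the 19th, and among those of at least 100 kb they were the 6th and the 3rd by share. Above Prkcb by number stood Sox5 (a transcription factor) with 133 doubly marked windows, Cdh13 (a cadherin anchored without a cytoplasmic tail) with 99, Cdh23 with 91 and Msi2 (an RNA-binding protein) with 84. Sox5 and Cdh13 are 954 and 1041 kb long, and their longest runs were 12 and 9 windows. Cdh23 had a higher level than both members, 3.17 ± 0.103 (SD, n = 3). The likeness of genes was measured as the distance over 20 values, the shares of windows called for either mark in 10 parts of the body, among 2451 other genes of at least 100 kb. Nearest to Prkcb were Rps6ka2 (a ribosomal S6 kinase, distance 0.995), Adam23 (a membrane protein of the disintegrin family, 1.21) and Nfix (a transcription factor, 1.32), against a median distance of 2.89. Rps6ka2 had a doubly marked run of 23 windows and a level of 2.12 ± 0.0818 (SD, n = 3). Nearest to Efcab6 were Ak8 (an adenylate kinase, 1.08), Trpc7 (a cation channel, 1.28) and Tns3 (a tensin, 1.29), against a median of 2.54. Ak8 had 38 of 57 windows doubly marked. The distance between Prkcb and Efcab6 was 2.17, which makes them the 171st and the 82nd nearest of each other.

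The labelled cell type was checked on marker genes. All 10 oocyte genes had a mean H3K36me3 level above 1, with a median of 2.13, and 0 of them had a window called for H3K27me3. Among them Zp3, which encodes a zona pellucida protein, had 2.28 ± 0.367 (SD, n = 3). Of 10 granulosa cell genes, 5 were above 1, with a median of 0.881, 7 had an H3K27me3 window and 2 a doubly marked one, beside the shares of 52.5%, 43.9% and 12.7% over all protein-coding genes given above. Below 1 were Fshr (0.353), Foxl2 (0.42), Inha (0.534), Esr2 (0.626) and Cyp19a1 (0.714). Above 1 were Inhba (1.05), Cyp11a1 (1.27), Amh (1.39), Nr5a1 (1.59) and Hsd3b1. Hsd3b1 had 1.87 ± 0.325 (SD, n = 3), the highest value of this list. B cell genes, from the cells best known for Prkcb, passed 1 in 1 of 6 cases (Ms4a1, 2.08) with a median of 0.449, and 5 of 6 had an H3K27me3 window. None of 6 sperm genes passed 1, with levels from 0.226 to 0.783 and a median of 0.40, and 4 of 6 had an H3K27me3 window. With 6 genes in each of these lists, the same all-gene shares of 52.5% and 43.9% apply. The part of other cells in the marks of Prkcb and Efcab6 was not tested. Each library pools oocytes and each mark comes from its own libraries, so windows with both marks on a single chromatin fibre and windows with either mark in different cells or on different alleles cannot be told apart.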

How the data were processed

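H3K36me3 ChIP-seq libraries of 3 GV oocyte pools were used. Per the methods, the authors trimmed reads with TrimGalore, mapped them to GRCm38 with Bowtie2 (2.2.9 per the submitters' processing notes), counted 2 kb windows in SeqMonk and removed windows with low or high input coverage. Removal of duplicates is not given in the sources used here. The deposited RPKM values are whole multiples of 1 step per replicate (100% within 0.01 reads), from which reads were recovered. They sum to 1067245 to 1071596 per replicate, so they lie nearer to CPM of windows than to values divided by length. The other deposited table holds the authors' mark calls. Per-sample columns not assigned to a sample numbered 0.

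Members and gene lists (protein kinase C, Efcab, oocyte, granulosa cell, B cell, sperm) were chosen with earlier results of these data known. A gene's windows are those overlapping its GENCODE M21 body. Levels are means over windows in each replicate, then mean ± SD over 3 replicates. No test was run. A protein kinase C gene and a sequence are not reported here. Named genes were the members, protein-coding genes in their flanks, the lists, the 5 genes with most doubly marked windows and the 3 most similar genes of each member. Functions for runs, parts and reads were tested on simulated data. Alternatives were replicates left out, thresholds, medians, scaling, thinned reads, flank size and window membership. Python 3.11.15, numpy 2.4.6, pandas 2.3.3 and matplotlib 3.10.9 were used.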

Additional observations from a re-analysis of the deposited data

How the results depend on the processing

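Of 96 values recomputed for 12 results, 76 stayed within 1 SD of the replicates or, for counts, within 1.5 times, 19 moved further and 1 changed sign. A threshold above 2 left 33 doubly marked windows in Prkcb and 36 in Efcab6, with longest runs of 9 and 8. A threshold above 1.5 gave longest runs of 10 in both genes, as did a level above 1 in each replicate, which left 50 doubly marked windows in Prkcb. Reads thinned to the shallowest replicate cut the longest run of Prkcb to 18, and that of Efcab6 remained 34. Without 1 replicate the longest run was 19 to 34 windows in Prkcb, shortest without replicate 2, and 21 to 29 in Efcab6, shortest without replicates 1 or 2. The median over windows gave 1.26 for the level of Prkcb, 1.43 for its 3 prime over 5 prime difference and 1.59 for body over flanks (both log2), and with 20 kb flanks the last was 1.12. The difference of doubly marked over H3K36me3 alone in Efcab6 was 0.030 with a threshold of 2 and 0.028 with a level above 1 in each replicate. The median over windows turned the Efcab6 difference of doubly marked over H3K36me3 alone to -0.031. Dividing each replicate by its mean gave levels of 1.49 and 2.38 by construction. Leaving out a replicate cannot move a mean of 3 by 1 SD, so those values show little. Single windows are limited by depth. No paired analysis was possible because there is a single group and no test.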
